A study of Homo sapiens with 27 samples.

Results

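The 10 genes described here encode sensors and regulators of the unfolded protein response, the set of pathways that answers misfolded protein in the endoplasmic reticulum (ER). They are ERN1, XBP1, ATF6, ATF6B, CREB3, CREB3L1, CREB3L2, MBTPS1, MBTPS2 and NFE2L1. They were chosen by name, and their symbols were matched to the Ensembl IDs of the deposited gene counts. All 10 were found among 19310 protein coding genes listed for every library, and all 10 passed the filter on low counts in RNA-seq, in Ribo-seq and in both together. The cells were wild-type IMR90, diploid fibroblasts from human fetal lung, sampled in 5 states with 27 libraries. RNA-seq measured mRNA, and ribosome profiling (Ribo-seq) measured the mRNA fragments covered by ribosomes, called footprints. Cycling cells received no treatment (2 RNA-seq and 3 Ribo-seq libraries), and quiescent cells had stopped growing through contact inhibition (3 and 3). Irradiated senescent cells received 15 Gy and were collected 10 days later (3 and 3). Etoposide-treated senescent cells received 50 µM of this topoisomerase II poison in 3 treatments within 10 days (3 and 3). Thapsigargin, an inhibitor of the calcium pump of the ER, was given to cycling cells at 25 nM for 3 h (2 and 2). Every lysate contained cycloheximide, which stalls ribosomes on mRNA, and all libraries come from 1 cell line.

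The unfolded protein response has 3 known sensors in the ER membrane. IRE1, the product of ERN1, is a kinase and RNase that cuts XBP1 mRNA, and the rejoined mRNA encodes an active transcription factor. ATF6 and its relative ATF6B are transcription factors anchored in the membrane, and the third sensor is the kinase PERK, encoded by EIF2AK3. Under ER stress ATF6 moves to the Golgi apparatus, where the site-1 protease (MBTPS1) and the site-2 protease (MBTPS2) cut it and free its DNA-binding part. CREB3, CREB3L1 and CREB3L2 are anchored and cut in a similar way, and CREB3L1 and CREB3L2 are known for their part in collagen secretion. NFE2L1 sits in the ER membrane too and raises proteasome genes when proteasome activity is low. Splicing of XBP1 mRNA and cleavage of these proteins are not visible in counts per gene.

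The sequence before each RefSeq transcription start (GRCh38.p14) was searched for 7 motifs of stress-regulated promoters on both strands. The RefSeq promoter table held all 10 genes, and the stretch searched was 250 bases long. For CREB3L1 the table's start lies inside the span of the gene. Sequences of XBP1 and CREB3L2 are shown because they hold the longer motifs, and that of CREB3 because its footprints rose under thapsigargin. Capitals mark the ER stress response element (ERSE, CCAAT and CCACG with 9 bases between them) in XBP1 and the cAMP response element (CRE, TGACGTCA) in CREB3L2. CREB3 has no capitals because none of the 7 motifs was found there.
XBP1 (chr22:28800570-28800819, minus strand): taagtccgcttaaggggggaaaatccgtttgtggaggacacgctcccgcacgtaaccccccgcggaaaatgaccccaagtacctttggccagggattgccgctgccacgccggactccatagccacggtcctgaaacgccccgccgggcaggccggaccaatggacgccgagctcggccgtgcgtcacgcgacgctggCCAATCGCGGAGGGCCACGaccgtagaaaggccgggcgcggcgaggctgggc
CREB3L2 (chr7:138002087-138002336, minus strand): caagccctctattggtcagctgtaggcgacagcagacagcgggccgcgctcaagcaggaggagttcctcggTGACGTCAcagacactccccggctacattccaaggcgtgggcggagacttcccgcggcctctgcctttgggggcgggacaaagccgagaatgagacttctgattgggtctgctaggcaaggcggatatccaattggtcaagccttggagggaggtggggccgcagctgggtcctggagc
CREB3 (chr9:35732416-35732665, plus strand): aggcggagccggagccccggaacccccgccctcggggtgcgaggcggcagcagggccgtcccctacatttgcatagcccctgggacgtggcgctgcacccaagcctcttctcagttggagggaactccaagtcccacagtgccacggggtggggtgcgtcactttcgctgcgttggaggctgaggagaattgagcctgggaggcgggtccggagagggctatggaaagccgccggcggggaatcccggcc
The ERSE of XBP1 ran from base -52 to base -34 before the start, and such a match was found in 21 of 27305 promoters (0.0769%). The CRE of CREB3L2 ran from base -179 to -172, and 1.75% of all promoters had one. A CCAAT box (CCAAT), which is also the first part of the ERSE, was present in 5 of the 10 genes (ERN1, XBP1, ATF6B, CREB3L2 and NFE2L1) and in 33.0% of all promoters. None of the 10 had ERSE-II (ATTGG and CCACG with 1 base between them, 0.0549% of promoters), the core of the XBP1-binding element (TGACGTG, 1.72%), the C/EBP-ATF core (TGATGCAA, 0.828%) or the antioxidant response core (TGACNNNGC, 11.1%). The CRE and the XBP1-binding core share their first letters, TGACGT. A match describes the letters of this window and shows neither a binding site nor a cause.

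**Figure D1:**
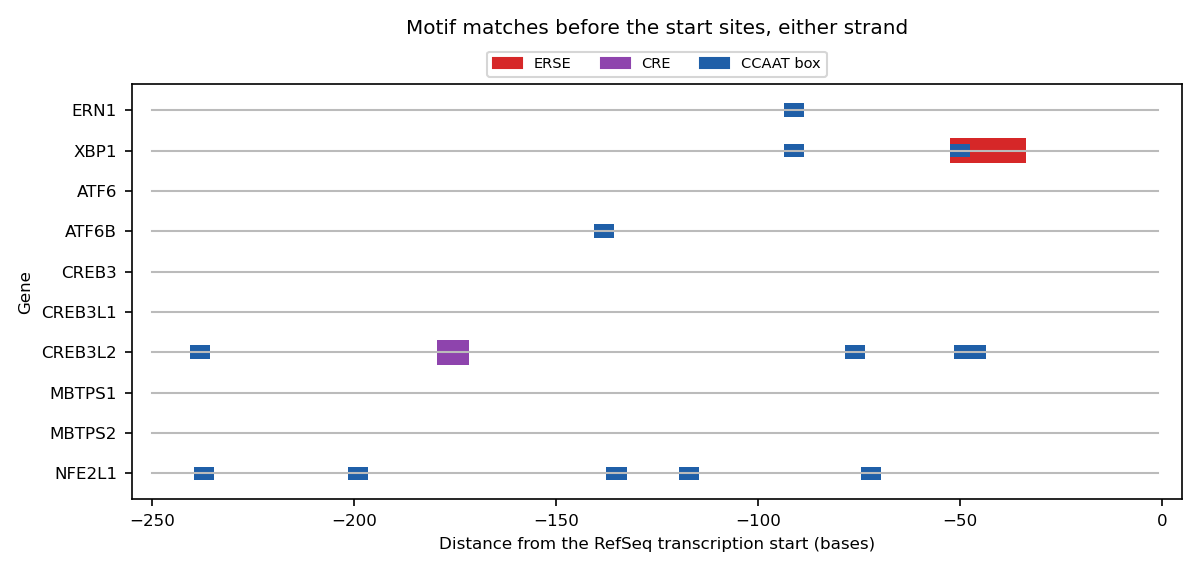
Each horizontal line is the sequence before the RefSeq transcription start of 1 gene, the x axis gives the distance from the start in bases, and coloured blocks are motif matches on either strand. The ERSE of XBP1 lies from -52 to -34, the CRE of CREB3L2 from -179 to -172, and CCAAT boxes are found in 5 of the 10 genes.

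RNA-seq libraries held from 20.6 to 57.1 and Ribo-seq libraries from 1.94 to 20.0 gene counts in units of 1e+06, with the lowest totals in both thapsigargin Ribo-seq libraries. The irradiated Ribo-seq libraries held 2.65 to 5.56 in the same units. Levels are given as CPM, which are counts per 1e+06 after TMM scaling, a step that corrects for library composition. All 8 fibroblast markers were present, with a summed level from 8872 to 14322 CPM in RNA-seq, while the summed levels of 4 epithelial, 4 endothelial and 4 leukocyte markers reached at most 0.790, 2.62 and 1.27 CPM. The thapsigargin RNA-seq libraries had 1.35% and 1.40% unmapped reads against 27.8% to 40.6% in the other states, and the thapsigargin Ribo-seq libraries follow a longer gene list than the other 12. In these 2 Ribo-seq libraries, 65.2% and 66.9% of reads mapped to several places, against 19.8% to 31.9% in the other 12, and 11.3% and 12.6% of uniquely mapped reads lay outside genes, against 1.35% to 2.77%. The part of these differences in the thapsigargin results was not tested. The 2 cycling RNA-seq libraries were unlike: 33.4% of reads mapped to several places in replicate 2 and 13.2% in replicate 1. Replicate 2 also had 10.7% of gene counts on the opposite strand, against 5.88%, and the lowest total in RNA-seq. Quiescent replicate 1 stood apart: each of the 10 genes had its lowest quiescent value there, in RNA-seq and in Ribo-seq, whereas 32.8% and 35.0% of all genes did. The labels do not say that replicates were separate cultures, so the p-values measure the spread between libraries, which may be technical.

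Changes of the 10 genes were read against those of all genes, with a gene called when its adjusted p was under 0.05. In quiescent cells, 2 of the 10 were called in RNA, both lower (XBP1 and MBTPS2), against 15.6% of all genes tested (5.18% higher and 10.4% lower). In Ribo-seq, 7 were called, all lower, against 22.4% of all genes (8.15% higher and 14.2% lower). Without quiescent replicate 1, 1 of the 10 was called in RNA and 7 in Ribo-seq, while the shares above are those with all libraries. Over all genes, leaving out single libraries gave at most 2242 calls in RNA (2068 with all libraries). In Ribo-seq it gave 1558 to 2934 (2631 with all libraries). In irradiated cells, 5 were called in RNA (34.9% of all genes, 16.2% higher and 18.8% lower), of which NFE2L1 was higher and XBP1, ATF6, CREB3L2 and MBTPS2 were lower. Footprints of 8 were called in irradiated cells (40.5% of all genes, 19% higher and 21.6% lower), each lower, and ERN1 and NFE2L1 were not called. In etoposide-treated cells, the RNA of ERN1, CREB3 and NFE2L1 rose and that of XBP1 and CREB3L2 fell, 5 in all against 34.6% of all genes (16.8% higher and 17.8% lower). Their footprints gave 4 calls against 33.9% of all genes (16.8% higher and 17.1% lower): ERN1 and NFE2L1 rose, and CREB3L1 and CREB3L2 fell.

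Under thapsigargin the RNA of 2 genes rose, ERN1 and XBP1, against 24.5% of all genes called (11.7% higher and 12.8% lower). Footprints of XBP1 and CREB3 rose and those of ATF6 and MBTPS2 fell, 4 calls against 44.6% of all genes (21.1% higher and 23.6% lower). Between irradiated and etoposide-treated cells, 5 were called in RNA (22.6% of all genes, 9.67% higher and 12.9% lower), and ERN1, XBP1, ATF6, CREB3 and MBTPS1 were each lower after irradiation. Footprints gave 7 calls in that comparison (22.5% of all genes, 8.82% higher and 13.7% lower), and ERN1, ATF6, ATF6B, CREB3, CREB3L2, MBTPS1 and MBTPS2 were lower after irradiation. When quiescent cells were set against the mean of irradiated and etoposide-treated cells, 3 were called in RNA (34.2% of all genes, 16.6% higher and 17.6% lower): CREB3 and NFE2L1 rose and CREB3L2 fell. Footprints of CREB3 and NFE2L1 rose in the same comparison, 2 calls against 26.1% of all genes (12.5% higher and 13.6% lower). Comparisons with cycling cells share the cycling libraries, so their values are given side by side and are not independent. In bulk samples, fewer cells that express a gene and less RNA per cell cannot be told apart.

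**Figure D2:**
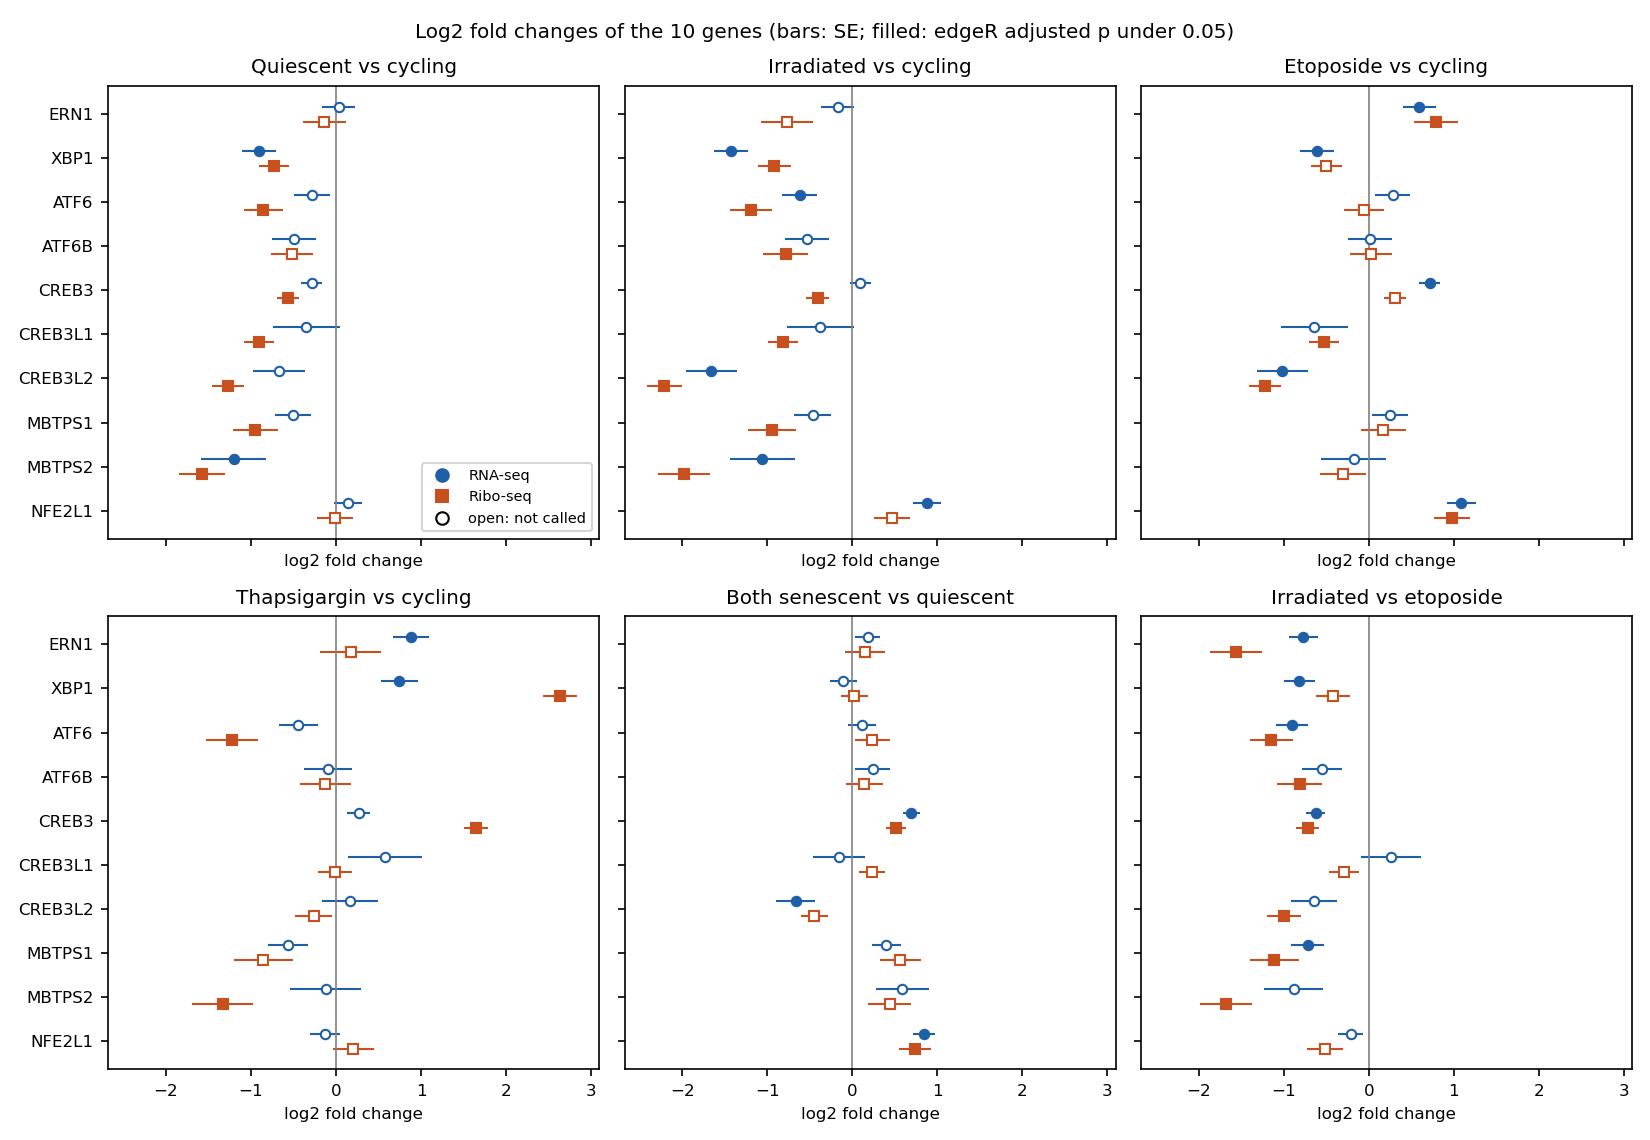
Each panel is 1 comparison; the x axis is the log2 fold change from edgeR, circles are RNA-seq and squares Ribo-seq, bars are SE, and filled symbols have an adjusted p under 0.05. In the irradiated against cycling panel 8 of the 10 squares are filled and lie below 0, and in the thapsigargin panel the squares of XBP1 and CREB3 lie farthest to the right.

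ERN1 (ENSG00000178607, chr17:64039142-64130144) encodes IRE1, the sensor that cuts XBP1 mRNA. Its RNA was 11.02 and 10.5 CPM in cycling cells, 18.2 and 21.4 CPM under thapsigargin and 15.0, 15.9 and 17.9 CPM in etoposide-treated cells. Both treated groups lay above the cycling libraries with no overlap, and the thapsigargin libraries lay above all others. The log2 fold change against cycling cells was 0.88 ± 0.21 (SE; edgeR adjusted p = 0.00882) under thapsigargin and 0.59 ± 0.20 (SE; edgeR adjusted p = 0.0317) with etoposide. Quiescent (8.30, 10.7 and 14.1 CPM) and irradiated cells (9.93, 9.34 and 9.39 CPM) gave no call, and the irradiated libraries lay below the etoposide-treated ones, with a log2 difference of -0.77 ± 0.17 (SE; edgeR adjusted p = 0.00621). Footprints of ERN1 were 6.47, 7.98 and 6.88 CPM in cycling and 8.21 and 7.87 CPM in thapsigargin libraries, a log2 fold change of 0.17 ± 0.36 (SE; edgeR adjusted p = 0.719) that was not called and rested on 15 and 15 counts. With counts of both strands added its sign turned, to -0.20. In etoposide-treated cells footprints rose with RNA, to 10.99, 13.3 and 12.8 CPM, a log2 fold change of 0.79 ± 0.26 (SE; edgeR adjusted p = 0.0302), and irradiated cells had 4.26, 4.56 and 3.77 CPM. Irradiated and etoposide-treated libraries did not overlap in footprints, and their log2 difference was -1.56 ± 0.30 (SE; edgeR adjusted p = 0.00278). The irradiated footprint values rested on 24, 12 and 13 counts. Leaving out single libraries ended some of these calls. In RNA, the thapsigargin call was lost without cycling replicate 1 or 2 (0.84 to 0.91, 0.0545 to 0.0704) and the etoposide call without cycling replicate 1 or 2 or etoposide replicate 2 or 3 (0.52 to 0.62, 0.0625 to 0.154), where the brackets give the log2 fold change and the edgeR adjusted p. The etoposide call in Ribo-seq was lost without cycling replicate 1 or 3 or etoposide replicate 1, 2 or 3 (0.72 to 0.86, 0.0532 to 0.107), with no filter on low counts (0.75, edgeR adjusted p = 0.0540) and with counts of both strands added (0.76, edgeR adjusted p = 0.0707).

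XBP1 (ENSG00000100219, chr22:28794560-28800569) encodes the transcription factor made from the mRNA that IRE1 splices. Cycling cells had 257 and 245 CPM of XBP1 RNA, and thapsigargin-treated cells 419.6 and 423 CPM. The other states were lower: 86.9, 139 and 175 CPM in quiescent, 87.0, 96.6 and 97.4 CPM in irradiated and 171, 168 and 155 CPM in etoposide-treated cells. Every library of these 3 states lay below both cycling libraries, and both thapsigargin libraries lay above them. Log2 fold changes against cycling cells were 0.75 ± 0.22 (SE; edgeR adjusted p = 0.0261) for thapsigargin, -0.91 ± 0.20 (SE; edgeR adjusted p = 0.00797) for quiescence, -1.42 ± 0.20 (SE; edgeR adjusted p = 0.000113) for irradiation and -0.61 ± 0.20 (SE; edgeR adjusted p = 0.0309) for etoposide. In order of mean level, thapsigargin and cycling cells stood apart from each other and from the rest, while etoposide-treated cells overlapped quiescent cells and quiescent cells overlapped irradiated cells. Irradiated libraries lay below etoposide-treated ones without overlap (-0.81 ± 0.18, edgeR adjusted p = 0.00602).

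Footprints of XBP1 rose far more than its RNA under thapsigargin. They were 49.0, 55.6 and 55.1 CPM in cycling and 281 and 380.1 CPM in thapsigargin libraries, a log2 fold change of 2.63 ± 0.20 (SE; edgeR adjusted p = 5.93e-07). The quiescent libraries had 23.0, 33.3 and 40.0 CPM and the irradiated ones 31.6, 26.2 and 26.1 CPM. Both states lay below all 3 cycling libraries, with log2 fold changes of -0.73 ± 0.18 (SE; edgeR adjusted p = 0.0106) and -0.92 ± 0.19 (SE; edgeR adjusted p = 0.00199). Etoposide-treated cells had 33.0, 37.3 and 42.8 CPM, also below cycling, but -0.50 ± 0.18 (SE; edgeR adjusted p = 0.0508) was not called. The thapsigargin rise in RNA was lost without cycling replicate 1 or 2 or thapsigargin replicate 1 or 2 (0.71 to 0.78, 0.0537 to 0.137), and the etoposide fall without cycling replicate 1 or 2 or etoposide replicate 1, 2 or 3 (-0.65 to -0.56, 0.0535 to 0.144). The quiescent fall in RNA was lost without cycling replicate 1 (-0.88, 0.0692) and when only the groups compared were fitted (-0.90, edgeR adjusted p = 0.0634). Without quiescent replicate 1 it was -0.68, edgeR adjusted p = 0.00486.

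ATF6 (ENSG00000118217, chr1:161766320-161964070) encodes the membrane-anchored sensor that is freed by the site-1 and site-2 proteases. Its RNA was 63.3 and 55.0 CPM in cycling, 39.5, 36.1 and 40.0 CPM in irradiated and 77.2, 73.2 and 65.5 CPM in etoposide-treated cells. The irradiated libraries lay below and the etoposide-treated ones above the cycling pair, and none overlapped. Quiescent (32.5, 49.1 and 64.2 CPM) and thapsigargin-treated cells (46.4 and 40.5 CPM) gave no call. The fall after irradiation was called (-0.62 ± 0.21, edgeR adjusted p = 0.0328), as was the difference between irradiated and etoposide-treated cells (-0.90 ± 0.19, edgeR adjusted p = 0.00400), whereas etoposide against cycling was not (0.28 ± 0.21, edgeR adjusted p = 0.321). ATF6 footprints were 56.1, 68.1 and 79.0 CPM in cycling, 22.6, 45.7 and 43.9 CPM in quiescent and 29.4, 31.6 and 27.8 CPM in irradiated cells. They were 36.7 and 21.5 CPM under thapsigargin and 62.3, 72.5 and 61.1 CPM with etoposide. All quiescent, irradiated and thapsigargin libraries lay below all cycling ones, while the etoposide-treated libraries overlapped them. Footprints fell in all 3 of these states, with log2 fold changes of -0.86 ± 0.23 (SE; edgeR adjusted p = 0.0171) in quiescent cells, -1.20 ± 0.25 (SE; edgeR adjusted p = 0.00177) in irradiated cells and -1.22 ± 0.31 (SE; edgeR adjusted p = 0.00575) under thapsigargin. The RNA fall after irradiation was lost without cycling replicate 1 or 2 or irradiated replicate 1, 2 or 3 (-0.72 to -0.51, 0.0640 to 0.208). The footprint fall was lost in quiescent cells without cycling replicate 3 (-0.73, 0.0814) or when only the groups compared were fitted (-0.87, edgeR adjusted p = 0.0750), and under thapsigargin without thapsigargin replicate 2 (-0.89, 0.0738). Without quiescent replicate 1, the quiescent footprint value was -0.61, edgeR adjusted p = 0.0197.

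ATF6B (ENSG00000213676, chr6:32115264-32128246), the relative of ATF6, was not called in RNA in any of the 6 comparisons. Its RNA was 20.1 to 21.9 CPM in cycling, 12.4 to 17.1 CPM in quiescent, 12.3 to 16.1 CPM in irradiated, 16.8 to 24.7 CPM in etoposide-treated and 12.996 to 26.3 CPM in thapsigargin libraries. All neighbouring states in the order of means overlapped. States farther apart did not all overlap: quiescent and irradiated libraries lay below both cycling ones, and irradiated libraries below the etoposide-treated ones. Footprints were 48.4, 40.5 and 43.0 CPM in cycling, 27.8, 21.7 and 26.4 CPM in irradiated and 40.8, 50.0 and 43.3 CPM in etoposide-treated cells. They were 19.8, 34.9 and 37.4 CPM in quiescent and 25.2 and 55.1 CPM in thapsigargin libraries. The irradiated libraries lay below the cycling and the etoposide-treated ones and overlapped the rest. Footprints were lower after irradiation than in cycling cells (-0.78 ± 0.26, edgeR adjusted p = 0.0283) and than in etoposide-treated cells (-0.81 ± 0.27, edgeR adjusted p = 0.0419). The first call was lost without cycling replicate 1 or 3 or irradiated replicate 1, 2 or 3 (-0.90 to -0.73, 0.0506 to 0.0856) and the second without irradiated replicate 1, 2 or 3 or etoposide replicate 1, 2 or 3 (-0.92 to -0.75, 0.0655 to 0.129).

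CREB3 (ENSG00000107175, chr9:35732666-35736999) encodes a membrane-anchored transcription factor that is cut by the same proteases as ATF6. Its RNA was 99.0 and 97.0 CPM in cycling, 165, 174 and 145 CPM in etoposide-treated and 126 and 109 CPM in thapsigargin-treated cells. Both treated groups lay above the cycling pair, but only the etoposide rise was called (0.72 ± 0.13, edgeR adjusted p = 0.000663), and thapsigargin gave 0.27 ± 0.14 (SE; edgeR adjusted p = 0.172). CREB3 footprints were 137, 121 and 115 CPM in cycling, 413 and 366 CPM in thapsigargin and 179, 155 and 130.1 CPM in etoposide-treated libraries. Both thapsigargin libraries were far above every other library, and etoposide-treated libraries overlapped cycling ones. The log2 fold change of footprints was 1.65 ± 0.14 (SE; edgeR adjusted p = 1.84e-06) under thapsigargin and 0.31 ± 0.13 (SE; edgeR adjusted p = 0.0798) with etoposide, which was not called. In quiescent cells CREB3 footprints were 71.2, 92.7 and 88.8 CPM, below all cycling libraries (-0.56 ± 0.13, edgeR adjusted p = 0.00734), while in irradiated cells they were 91.5, 91.6 and 98.2 CPM (-0.41 ± 0.13, edgeR adjusted p = 0.0245). Quiescent cells had 74.6, 91.7 and 74.8 CPM of RNA, below the cycling pair, with no call. Irradiated cells had 105, 107 and 103 CPM, above the cycling pair, with a log2 fold change of 0.09 ± 0.12 that was not called. Etoposide-treated cells exceeded irradiated ones in both assays, with log2 differences of irradiated from etoposide-treated cells of -0.62 ± 0.11 (SE; edgeR adjusted p = 0.00148) in RNA and -0.72 ± 0.13 (SE; edgeR adjusted p = 0.00209) in footprints. Against quiescent cells, both senescent states together were higher by 0.69 ± 0.10 in RNA (edgeR adjusted p = 0.000157) and by 0.51 ± 0.11 in footprints (edgeR adjusted p = 0.00476). The irradiated fall in footprints was lost without cycling replicate 1 or irradiated replicate 1 or 2 (-0.43 to -0.37, 0.0529 to 0.0726).

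**Figure D3:**
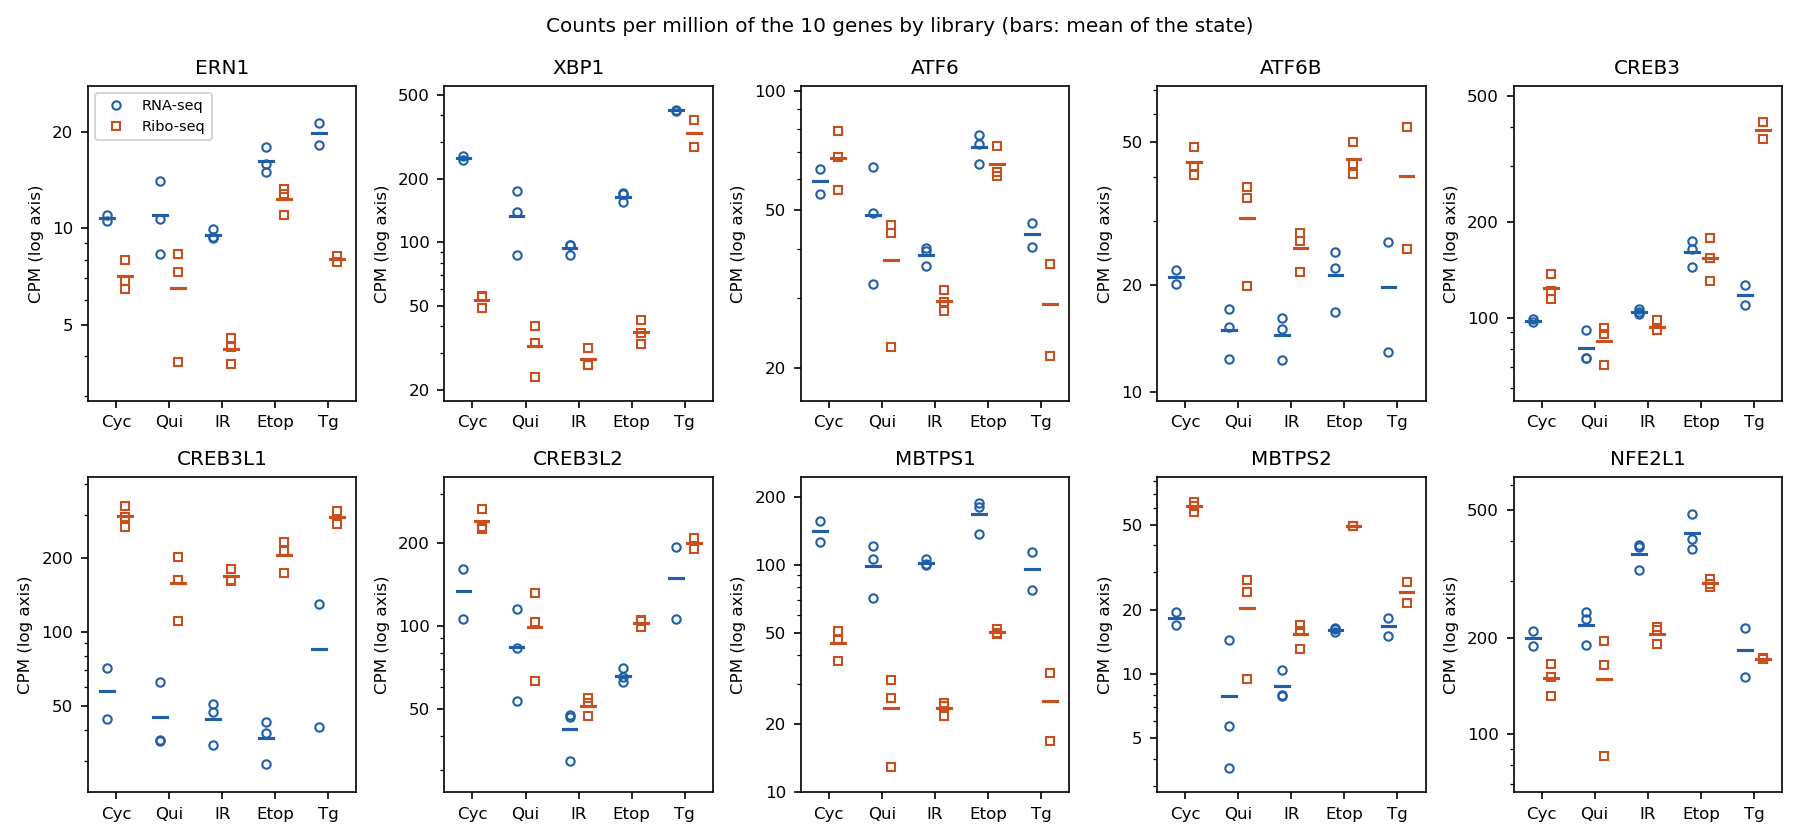
Each panel is 1 gene; points are single libraries (circles RNA-seq, squares Ribo-seq), bars are state means, the y axis is CPM on a log scale, and the x axis gives the states (Cyc cycling, Qui quiescent, IR irradiated, Etop etoposide, Tg thapsigargin). In the CREB3 panel both thapsigargin squares (366 to 413 CPM) lie above all other points, and in the XBP1 panel the thapsigargin squares (281 to 380.1 CPM) lie above all other squares.

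CREB3L1 (ENSG00000157613, chr11:46277662-46321409) and CREB3L2 (ENSG00000182158, chr7:137874979-138002086) are the CREB3 relatives known from collagen-secreting cells. CREB3L1 RNA was not called in any of the 6 comparisons. Its replicates differed widely, with 44.2 and 71.2 CPM in cycling and 41.0 and 130.5 CPM in thapsigargin-treated cells. The other states spanned 36.2 to 62.9 CPM (quiescent), 34.8 to 50.8 CPM (irradiated) and 29.0 to 43.0 CPM (etoposide), and all neighbours in the order of means overlapped. The etoposide-treated libraries lay below both cycling ones. Footprints of CREB3L1 were tighter, at 294, 269 and 328 CPM in cycling and 277 and 311 CPM in thapsigargin libraries, which overlapped. They were 111, 163 and 202 CPM in quiescent, 162, 181 and 163 CPM in irradiated and 213, 232 and 174 CPM in etoposide-treated cells, all below the cycling libraries. CREB3L1 footprints fell in quiescent (-0.90 ± 0.18, edgeR adjusted p = 0.00280), irradiated (-0.82 ± 0.18, edgeR adjusted p = 0.00239) and etoposide-treated cells (-0.52 ± 0.18, edgeR adjusted p = 0.0329). The last call was lost without cycling replicate 1 or 3 or etoposide replicate 1 or 3 (-0.56 to -0.42, 0.0673 to 0.138).

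CREB3L2 had the largest falls in footprints among the 10 genes after irradiation and after etoposide. Its RNA was 106 and 161 CPM in cycling, 46.7, 32.5 and 47.6 CPM in irradiated and 62.5, 65.1 and 70.3 CPM in etoposide-treated cells. Both senescent groups lay below the cycling pair and did not overlap each other, while quiescent libraries (53.3, 115 and 83.3 CPM) overlapped the cycling ones. RNA fell after irradiation (-1.66 ± 0.30, edgeR adjusted p = 0.000843) and after etoposide (-1.02 ± 0.30, edgeR adjusted p = 0.0183), and the senescent states together were lower than quiescent cells (-0.67 ± 0.23, edgeR adjusted p = 0.0393). CREB3L2 footprints were 225, 265 and 228 CPM in cycling, 63.0, 103 and 131 CPM in quiescent, 52.5, 47.1 and 54.8 CPM in irradiated and 98.7, 105 and 104 CPM in etoposide-treated cells. Cycling libraries were above all of these, and irradiated libraries below all of them. In footprints this gave -1.27 ± 0.19 (SE; edgeR adjusted p = 0.000684), -2.21 ± 0.20 (SE; edgeR adjusted p = 2.24e-06) and -1.22 ± 0.19 (SE; edgeR adjusted p = 0.000241) in that order, and the difference of irradiated from etoposide-treated cells was -0.99 ± 0.20 (SE; edgeR adjusted p = 0.00338). Under thapsigargin CREB3L2 was called neither in RNA, with 105 and 193 CPM, nor in footprints, with 190.0 and 208 CPM. The etoposide RNA call was lost without cycling replicate 2 or etoposide replicate 2 (-1.01 to -0.69, 0.0520 to 0.201), and the call against quiescent cells without quiescent replicate 2 or 3 or irradiated replicate 1 or 2 or etoposide replicate 1, 2 or 3 (-0.71 to -0.37, 0.0518 to 0.261) and with no filter on low counts (-0.66, edgeR adjusted p = 0.0673).

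MBTPS1 (ENSG00000140943, chr16:84053763-84116942) encodes the site-1 protease, which makes the first cut in ATF6 and in the sterol regulators of the SREBP family. Its RNA was 126 and 157 CPM in cycling, 106, 101 and 99.6 CPM in irradiated and 137, 187 and 179.8 CPM in etoposide-treated cells, and irradiated libraries lay below both other groups. Quiescent (71.5, 106 and 121 CPM) and thapsigargin-treated cells (77.7 and 114 CPM) overlapped the irradiated ones. RNA was called in 1 comparison, irradiated against etoposide-treated cells (-0.72 ± 0.19, edgeR adjusted p = 0.0169). MBTPS1 footprints were 37.8, 46.8 and 51.0 CPM in cycling, 12.9, 26.0 and 31.3 CPM in quiescent, 24.7, 21.7 and 24.1 CPM in irradiated and 49.9, 52.2 and 50.4 CPM in etoposide-treated cells. Quiescent and irradiated libraries lay below all cycling and etoposide-treated ones. Footprints fell in quiescent (-0.95 ± 0.26, edgeR adjusted p = 0.0194) and irradiated cells (-0.94 ± 0.28, edgeR adjusted p = 0.0164), and irradiated cells were below etoposide-treated ones (-1.11 ± 0.29, edgeR adjusted p = 0.0129). Under thapsigargin the footprints were 33.4 and 16.8 CPM, below all cycling libraries, with -0.85 ± 0.35 (SE; edgeR adjusted p = 0.0586) and no call. The RNA call was lost without irradiated replicate 3 or etoposide replicate 2 or 3 (-0.70 to -0.63, 0.0538 to 0.0743). The footprint calls were lost without cycling replicate 2 or 3 (-0.93 to -0.86, 0.0557 to 0.0800) for quiescent cells, also when only the groups compared were fitted (-0.97, edgeR adjusted p = 0.0781), and without cycling replicate 3 or irradiated replicate 2 (-0.93 to -0.85, 0.0503 to 0.0566) for irradiated cells. Without quiescent replicate 1 the quiescent value was -0.67, edgeR adjusted p = 0.0206.

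MBTPS2 (ENSG00000012174, chrX:21839617-21885423) encodes the site-2 protease, which makes the second cut within the membrane. Cycling libraries had 17.05 and 19.5 CPM of its RNA, and quiescent and irradiated libraries 3.63, 14.4 and 5.69 CPM and 7.89, 7.98 and 10.4 CPM. Both states lay below the cycling pair, and the quiescent libraries spread over a wider range than the irradiated ones. RNA fell in quiescent (-1.21 ± 0.38, edgeR adjusted p = 0.0494) and irradiated cells (-1.06 ± 0.38, edgeR adjusted p = 0.0460), and etoposide-treated (16.5, 15.8 and 16.2 CPM) and thapsigargin-treated cells (15.1 and 18.4 CPM) gave no call. MBTPS2 footprints were 57.2, 64.0 and 61.5 CPM in cycling, 9.50, 24.2 and 27.6 CPM in quiescent and 17.03, 16.0 and 13.04 CPM in irradiated libraries. They were 49.5, 49.4 and 49.4 CPM in etoposide-treated and 26.8 and 21.5 CPM in thapsigargin libraries. Every other state lay below the cycling libraries, and the etoposide-treated libraries were closest to them. Footprints fell in quiescent cells (-1.58 ± 0.27, edgeR adjusted p = 0.00151), in irradiated cells (-1.98 ± 0.30, edgeR adjusted p = 0.000180) and under thapsigargin (-1.33 ± 0.36, edgeR adjusted p = 0.00851). The difference of irradiated from etoposide-treated cells was -1.68 ± 0.31 (SE; edgeR adjusted p = 0.00189). Both RNA calls were close to the threshold. The quiescent one was lost without cycling replicate 1 or 2 or quiescent replicate 1 or 3 (-1.30 to -0.86, 0.0918 to 0.206), with no filter on low counts (-1.20, edgeR adjusted p = 0.0736), with only the groups compared (-1.20, edgeR adjusted p = 0.168), with RLE scaling (-1.21, edgeR adjusted p = 0.0504) and without the thapsigargin libraries (-1.21, edgeR adjusted p = 0.0503). Without quiescent replicate 2 it was larger (-1.96, edgeR adjusted p = 0.000377). The irradiated one was lost without cycling replicate 1 or 2 or irradiated replicate 1, 2 or 3 (-1.20 to -0.96, 0.0616 to 0.181) and with no filter (-1.05, edgeR adjusted p = 0.0707). The thapsigargin footprint call was lost without thapsigargin replicate 2 (-1.19, 0.0699). Without quiescent replicate 1 the quiescent footprint value was -1.25, edgeR adjusted p = 2.67e-05.

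NFE2L1 (ENSG00000082641, chr17:48048359-48061545), the ER-anchored regulator of proteasome genes, rose in RNA in both senescent states. Its RNA was 189 and 209.8 CPM in cycling, 389, 384 and 325 CPM in irradiated and 379.5, 406 and 486 CPM in etoposide-treated cells. All 6 senescent libraries lay above the cycling pair, above the quiescent libraries (190.3, 240.1 and 228 CPM) and above the thapsigargin libraries (151 and 214 CPM). The log2 fold change was 0.88 ± 0.17 (SE; edgeR adjusted p = 0.00124) after irradiation and 1.09 ± 0.17 (SE; edgeR adjusted p = 0.000252) after etoposide, and both states together exceeded quiescent cells by 0.84 ± 0.13 (SE; edgeR adjusted p = 0.000323). NFE2L1 footprints were 131, 151 and 166 CPM in cycling, 215, 212 and 191 CPM in irradiated and 288, 294 and 304 CPM in etoposide-treated cells. Both senescent groups lay above the cycling libraries, and the etoposide-treated above the irradiated ones. Quiescent (85.5, 164 and 195 CPM) and thapsigargin libraries (171 and 173 CPM) gave no call. The footprint rise was called after etoposide (0.98 ± 0.21, edgeR adjusted p = 0.00263) and for both senescent states against quiescent cells (0.74 ± 0.19, edgeR adjusted p = 0.0104), but not after irradiation alone (0.46 ± 0.21, edgeR adjusted p = 0.0974). These 5 NFE2L1 calls kept an adjusted p under 0.05 in every alternative run, but without quiescent replicate 1 the footprint difference from quiescent cells was smaller (0.45, edgeR adjusted p = 0.00570).

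Translational efficiency (TE) was taken as the ratio of footprint to RNA levels of a gene, and edgeR tested changes in it by the assay-by-state interaction over all 27 libraries. Under thapsigargin the TE of XBP1 and CREB3 rose, 2 of the 10 genes against 20.8% of all genes tested (9.47% higher). The XBP1 ratio was 0.213 in cycling cells, at percentile 4.46 of all genes, and 0.792 under thapsigargin, at percentile 46.6. Its log2 change in TE was 1.89 ± 0.31 (SE; edgeR adjusted p = 0.000205). In quiescent, irradiated and etoposide-treated cells the XBP1 ratio was 0.240, 0.297 and 0.226. CREB3 went from a ratio of 1.27 (percentile 67.3) in cycling cells to 3.33 (percentile 95.2) under thapsigargin, a log2 change of 1.38 ± 0.20 (SE; edgeR adjusted p = 8.01e-05). Both TE calls held in every alternative run. The other 8 genes were not called, and the lowest log2 change in TE among the 10 was -1.21 (median -0.35, all genes -0.09). The MBTPS2 ratio was 3.35 (percentile 96.7) in cycling cells and 1.45 (percentile 73.2) under thapsigargin. Footprints lie on the coding part of an mRNA and RNA-seq reads on all of it, so ratios and percentiles reflect mRNA structure as well as ribosome load. The part of XBP1 splicing in the change of its ratio was not tested.

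In the other 5 comparisons edgeR called no TE change among the 10 genes. All genes tested gave 0% of calls in quiescent against cycling cells, 0.0256% after irradiation, 0.0683% after etoposide, 0.0598% for senescent against quiescent cells and 0% for irradiated against etoposide-treated cells. At an unadjusted p under 0.05, edgeR had from 3.34% (quiescent against cycling cells) to 6.10% (after irradiation) of all genes tested in these comparisons. Of the 10 genes it had 0, 1, 1, 0 and 1 in the 5 comparisons, in the order above, and DESeq2 called 0 in each. The 3 were CREB3 after irradiation (-0.52 ± 0.19, edgeR adjusted p = 0.569) and after etoposide (-0.43 ± 0.19, edgeR adjusted p = 1.000), and ERN1 between the senescent states (-0.79 ± 0.35, edgeR adjusted p = 0.937). They were named after their values were seen. With only the compared groups in the fit, edgeR called 3 of the 10 genes after irradiation, CREB3 among them, and 1 between the senescent states. That 1 was not ERN1 (edgeR adjusted p = 0.0695). Over all genes these fits called 543 (from 3) and 440 (from 0). Ratios of the 10 genes differed widely in cycling cells, from 0.213 for XBP1 and 0.321 for MBTPS1 (percentile 9.29) to 3.35 for MBTPS2 (percentile 96.7) and 5.17 for CREB3L1 (percentile 98.8). CREB3L1 kept ratios from 3.46 under thapsigargin to 5.51 with etoposide, and MBTPS1 ratios from 0.228 to 0.321. Outside the thapsigargin state, the Ribo-seq and RNA-seq counts behind a ratio follow different gene lists, and the part of this was not tested.

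**Figure D4:**
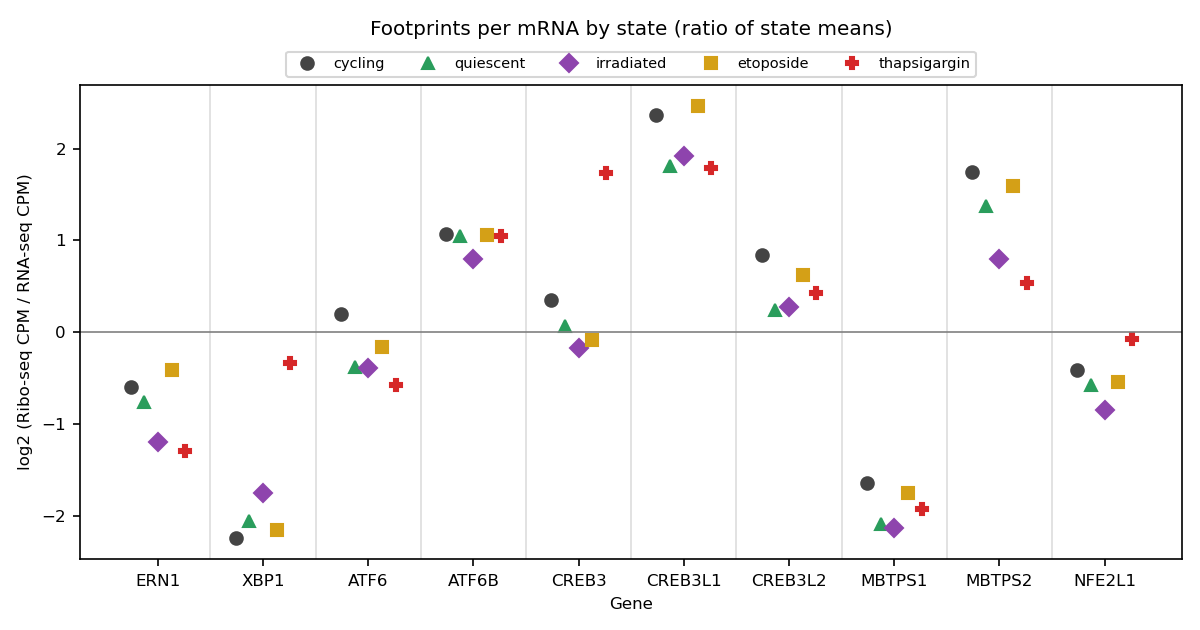
The y axis is the log2 ratio of mean Ribo-seq CPM to mean RNA-seq CPM in a state, the x axis lists the 10 genes, and symbols mark the 5 states, each a ratio of state means with no error bar. The thapsigargin symbols of XBP1 and CREB3 lie above the other 4 of the same gene, at ratios of 0.792 and 3.33.

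Genes that act with the 10 were read as lists, with counts beside the share of all genes called in the same direction. Not every comparison is given for each list, and some are given in RNA or in footprints only. Of 16 known targets of ATF6 and XBP1, chiefly ER chaperones and secretion genes, 11 rose in RNA under thapsigargin and 0 fell, against 11.7% and 12.8% of all genes (median log2 fold change 0.85, against -0.03 for all genes). In footprints 8 rose and 0 fell, against 21.1% and 23.6% (median 0.52, all genes -0.08). HERPUD1, which takes part in ER-associated degradation, rose most in RNA (3.54 ± 0.16, edgeR adjusted p = 6.29e-08), and SDF2L1, an ER chaperone partner, followed (3.23 ± 0.23, edgeR adjusted p = 1.19e-06). After irradiation 11 of the 16 fell in RNA and 1 rose, against 18.8% and 16.2% of all genes (median -0.92, all genes 0.03). In footprints 13 fell and 1 rose, against 21.6% and 19% (median -1.36, all genes 0.03). The co-chaperone DNAJB11 had the largest fall in both (-1.60 ± 0.24 and -2.08 ± 0.35), and SEC61B, a subunit of the ER translocon, was the gene that rose (0.46 ± 0.14 and 0.83 ± 0.14). After etoposide 2 rose and 0 fell in RNA, against 16.8% and 17.8%, and the 2 were the co-chaperone DNAJB9 (1.37 ± 0.23, edgeR adjusted p = 0.000454) and SEC61B (0.56 ± 0.14, edgeR adjusted p = 0.00755). Footprints after etoposide also gave 2 rises and 0 falls, against 16.8% and 17.1% of all genes. Irradiated cells were below etoposide-treated ones for 14 of the 16 in RNA and 13 in footprints, against 12.9% and 13.7% of all genes (medians -1.16 and -1.52, all genes 0.06 and 0.06). HSPA5, the chaperone BiP, had the largest such difference in both assays (-1.56 ± 0.39, edgeR adjusted p = 0.0120 and -1.79 ± 0.27, edgeR adjusted p = 0.000810). In quiescent cells 8 fell in RNA and 0 rose, against 10.4% and 5.18% of all genes, and 10 fell and 2 rose in footprints, against 14.2% and 8.15%. Quiescent replicate 1 was the lowest quiescent library for 15 of these 16 genes in RNA and 14 in Ribo-seq, and its part in the list's counts was not tested.

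The other substrates and partners of the site-1 and site-2 proteases, among them the SREBP regulators, made a list of 8. In RNA 6 fell in quiescent and 6 in irradiated cells, against 10.4% and 18.8% of all genes, with 0 rises in either (medians -0.78 and -1.04, all genes 0.02 and 0.03). In footprints 7 fell in each, against 14.2% and 21.6% (medians -1.14 and -1.61, all genes 0.04 and 0.03). INSIG1, which holds SREBP in the ER when sterols are plentiful, had the largest falls in RNA, -1.51 ± 0.12 (SE; edgeR adjusted p = 7.33e-05) in quiescent and -2.01 ± 0.12 (SE; edgeR adjusted p = 1.15e-07) in irradiated cells. Etoposide-treated cells gave 2 falls and 1 rise in RNA, against 17.8% and 16.8% of all genes: INSIG1 (-1.86 ± 0.12) and SREBF1 (-0.999 ± 0.24) against GNPTAB (0.56 ± 0.15), a transferase of lysosomal enzyme sorting that the site-1 protease activates. Their footprints also gave 2 falls and 1 rise, against 17.1% and 16.8%. Under thapsigargin 2 of the 8 rose in RNA, INSIG1 among them (1.12 ± 0.14, edgeR adjusted p = 7.82e-05), and 0 fell, against 11.7% and 12.8%. In footprints 1 rose and 2 fell, against 21.1% and 23.6%. The rise was that of INSIG1 (0.86 ± 0.33, edgeR adjusted p = 0.0495), and SCAP, which escorts SREBP out of the ER, had the larger fall (-1.06 ± 0.32, edgeR adjusted p = 0.0160).

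Of 8 partners of the sensors, 2 rose and 0 fell in RNA under thapsigargin, against 11.7% and 12.8% of all genes: the ubiquitin ligase SYVN1 (1.40 ± 0.32, edgeR adjusted p = 0.00648) and EIF2AK3, which encodes PERK (1.08 ± 0.26, edgeR adjusted p = 0.00882). EIF2AK3 footprints under thapsigargin gave 0.81 ± 0.35 (SE; edgeR adjusted p = 0.0780) and no call. In footprints 1 rose and 2 fell, against 21.1% and 23.6%. The tRNA ligase RTCB, which rejoins XBP1 mRNA after the cut by IRE1, rose in footprints (0.76 ± 0.10, edgeR adjusted p = 7.11e-05) and in TE (0.80 ± 0.17, edgeR adjusted p = 0.00165). SEC63, a partner of the ER translocon (-0.97 ± 0.32, edgeR adjusted p = 0.0230), and PDIA6, a disulfide isomerase that acts on IRE1 (-0.86 ± 0.30, edgeR adjusted p = 0.0323), fell. After irradiation 3 of the 8 fell in RNA and 5 in footprints, against 18.8% and 21.6%, with 0 rises in either and PDIA6 lowest in both (-1.59 ± 0.25 and -1.91 ± 0.27), and EIF2AK3 next in RNA (-1.19 ± 0.24, edgeR adjusted p = 0.00158). After etoposide 1 rose in RNA, WFS1 (1.34 ± 0.27, edgeR adjusted p = 0.00162), an ER membrane protein, and 0 fell, against 16.8% and 17.8%. Footprints after etoposide gave 1 rise and 1 fall, against 16.8% and 17.1%.

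The proteasome list linked to NFE2L1 held 34 genes. While NFE2L1 RNA rose in both senescent states, 1 of the 34 rose and 3 fell in RNA after irradiation, against 16.2% and 18.8% of all genes. After etoposide 3 rose and 3 fell in RNA, against 16.8% and 17.8% (medians 0.02 and -0.01 in that order, all genes 0.03 and 0.00). The called rises in RNA were small: PSMC4, an ATPase of the proteasome cap, had 0.29 ± 0.11 after irradiation and 0.54 ± 0.11 after etoposide, and VCP, which pulls proteins out of the ER membrane, had 0.52 ± 0.11 after etoposide. PSMA2 gave the largest falls in RNA but at 0.803 to 1.35 CPM in cycling and 0.0539 to 0.148 CPM in etoposide-treated cells, on 4, 5 and 2 counts in the latter. STAR leaves reads that overlap several genes out of the counts, so this value is uncertain. In footprints 5 rose and 5 fell of 32 tested after irradiation, against 19% and 21.6% of all genes. After etoposide 5 rose and 6 fell of 32 tested in footprints, against 16.8% and 17.1%. The footprint medians were 0.03 and -0.03 in that order, with 0.03 and 0.01 for all genes. In quiescent cells edgeR called 0 of the 34 in RNA and 0 of 32 tested in footprints, against 15.6% and 22.4% of all genes in either direction. Under thapsigargin 1 rose and 2 fell in RNA, against 11.7% and 12.8% of all genes. In footprints 9 rose and 8 fell of 32 tested, against 21.1% and 23.6%.

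The secretion list of CREB3L1 and CREB3L2 held 8 genes, 2 of them collagen genes. Under thapsigargin 3 of the 8 fell and 2 rose in footprints, against 23.6% and 21.1% of all genes. COL1A1 and COL1A2 had the largest falls, with log2 fold changes of -2.73 ± 0.34 (SE; edgeR adjusted p = 3.58e-05) and -3.84 ± 0.34 (SE; edgeR adjusted p = 2.31e-06), and the third was the vesicle coat gene SEC23A (-0.32 ± 0.10). The rises were those of GOLGA3, a Golgi protein (0.59 ± 0.17, edgeR adjusted p = 0.0115), and SEC24D, another coat gene (0.45 ± 0.09, edgeR adjusted p = 0.00134). TE fell for 3 of the 8 and rose for 0, against 20.8% of all genes called in either direction, of which 9.47% were higher and the rest lower. COL1A1 (-2.47 ± 0.62, edgeR adjusted p = 0.00711) and COL1A2 (-2.99 ± 0.50, edgeR adjusted p = 0.000236) had the largest falls in TE. Both also belong to the 8 fibroblast markers, of which 7 fell in footprints and 5 in RNA under thapsigargin, against 23.6% and 12.8% of all genes. In irradiated cells 1 of the 8 secretion genes fell and 1 rose in RNA, against 18.8% and 16.2%. SURF4, a cargo receptor of ER export, fell (-1.85 ± 0.18, edgeR adjusted p = 4.15e-06), and SEC31A, a coat protein of ER export vesicles, rose (0.49 ± 0.10, edgeR adjusted p = 0.00184). After etoposide 1 fell and 1 rose in RNA, against 17.8% and 16.8%: COL1A1 RNA fell (-1.22 ± 0.45, edgeR adjusted p = 0.0482) and SEC31A rose (0.37 ± 0.10, edgeR adjusted p = 0.0111). In footprints 3 of the 8 fell and 2 rose after irradiation, against 21.6% and 19% of all genes. After etoposide 1 fell and 2 rose in footprints, against 17.1% and 16.8%.

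The genes with the most similar RNA pattern were taken by Pearson r of log2 CPM over the 13 RNA-seq libraries, as a description that shares libraries and states. For XBP1 they included ANKLE2 (r = 0.98) and LRRC8C (r = 0.98), and for ATF6 they were SCARB2 (r = 0.98), TTC13 (r = 0.96) and JAM3 (r = 0.96). For ERN1 they were INHBA (r = 0.94), ATP2B1 (r = 0.93) and PCDH10 (r = 0.93). CREB3 was closest to P3H2 (r = 0.96), CREB3L2 to FZD1 (r = 0.96), MBTPS2 to DSG2 (r = 0.94) and NFE2L1 to TMEM140 (r = 0.97). Among the 10 genes themselves, XBP1 and CREB3L2 were most alike (r = 0.83), followed by ATF6 and MBTPS1 (r = 0.78).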

How the data were processed

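RNA-seq and Ribo-seq were analysed in 27 libraries grouped by the titles in the labels. The deposited values are raw read counts per gene in the layout of the aligner STAR, and the submitters' processing notes name STAR 2.7.10b, DESeq2 1.36.0 and hg38; annotation and trimming are not given in the sources used here. Per the labels' protocols, RNA-seq used a stranded kit and Ribo-seq a small RNA kit, so RNA-seq was read from the reverse-strand column and Ribo-seq from the forward-strand column. The gene list had 62703 IDs in RNA-seq and under thapsigargin in Ribo-seq, and 60664 in the remaining 12 Ribo-seq files; the 60534 shared IDs were used, and biotypes came from RefSeq (GRCh38.p14). Lines that name no gene (unmapped reads, 1.35% to 40.6%; reads mapping to several places, 9.43% to 66.9%) were left out. Gene positions are those of the RefSeq gene table.

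Counts of protein coding genes kept by filterByExpr (13293 in RNA-seq, 11766 in Ribo-seq, 11715 in both) entered the robust quasi-likelihood test of edgeR 4.0.16 (R 4.3.3), with TMM scaling and all 5 states in 1 fit. TE was the interaction of assay and state. Tests were two-sided, with Benjamini-Hochberg adjustment over all genes tested. SE is the log2 fold change divided by the square root of F. The steps were run on simulated counts with the same spread for all genes and changes set in irradiated cells only. Recovery of the set changes was required for RNA-seq and Ribo-seq but not for TE. Deviations from state means, correlated across genes, were over 0.1 for every same-numbered pair of cycling and quiescent Ribo-seq libraries (r = 0.154, 0.272 and 0.264). The same held for RNA-seq with Ribo-seq of etoposide-treated cells (0.134, 0.382 and 0.199) and of cycling cells (0.142 and 0.193). These were taken as pairs, from the data and not from the labels, and no other comparison with 3 or more pairs met this. With 2 pairs, thapsigargin RNA-seq met it against cycling (0.174 and 0.174) and etoposide-treated cells (0.474 and 0.112), but was not taken as paired. In a group of 2 libraries, cycling RNA-seq included, the deviations mirror each other, so the 2 values are not separate evidence. The main tests hold no term for pairs, which entered only through the replicate block in alternative runs. Alternatives were RLE scaling, no filter, DESeq2 1.42.0, unstranded counts, only the groups compared, a replicate block, leaving out each library and, added after seeing the data, leaving out the thapsigargin libraries. A shift common to all genes is removed by the scaling. The 10 genes and the lists of partners were chosen with earlier results of these data known. By rule the text names all 10 genes, up to 2 called rises and 2 called falls per list and comparison, EIF2AK3, HSPA5, DNAJB9 and HERPUD1, and the genes of most similar pattern (log2 CPM with a prior count of 2). The labels give 2 times for the RNase incubation, and which libraries had which is not known. One characteristic calls all thapsigargin libraries protected fragments, so their titles were used. The labels describe the medium of the thapsigargin cells without the antibiotics listed for the other states. A gene in the list of other protease substrates and partners is included in that list's counts and medians, and its own values are not reported here.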

Additional observations from a re-analysis of the deposited data

Results flagged for a closer look

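Under thapsigargin, 2 of the 10 genes were called as changing differently in footprints than in RNA, by a test of the interaction of assay and state that called 20.8% of all genes. For XBP1 the log2 change in TE was 1.89 ± 0.31 (SE; edgeR adjusted p = 0.000205), with RNA at 0.75 ± 0.22 and footprints at 2.63 ± 0.20. For CREB3 it was 1.38 ± 0.20 (SE; edgeR adjusted p = 8.01e-05), with RNA at 0.27 ± 0.14 and footprints at 1.65 ± 0.14. The part of XBP1 splicing in the XBP1 value was not tested. Both thapsigargin footprint libraries lay above all 3 cycling ones for either gene. These libraries held the fewest gene counts in Ribo-seq, follow a longer gene list than the cycling Ribo-seq libraries and had more reads mapping to several places (65.2% and 66.9%, cycling 26.5% to 31.9%) and outside genes (11.3% and 12.6%, cycling 1.42% to 1.73%), and the part of each was not tested.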

How the results depend on the processing

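Of 56 called results of the 10 genes, 35 stayed called in every alternative run, 21 lost their call in at least 1, and 0 changed direction. Of these 21, 12 were lost only when a library was left out. Of the uncalled values in the text, ERN1 footprints under thapsigargin turned from 0.17 to -0.20 with unstranded counts. With only the groups compared, NFE2L1 footprints were called after irradiation (0.47, edgeR adjusted p = 0.000958). XBP1 (-0.51, edgeR adjusted p = 0.00173) and CREB3 (0.30, edgeR adjusted p = 0.0330) then gained footprint calls after etoposide. CREB3 gained a TE call after irradiation (-0.48, edgeR adjusted p = 0.0379). With no filter, footprints of XBP1 after etoposide (-0.54, edgeR adjusted p = 0.0335) and of MBTPS1 under thapsigargin (-0.95, edgeR adjusted p = 0.0407) were called. Numbers of called genes among the 10 moved by over 1.5 times as follows, and where fewer libraries or fewer groups entered a fit, the estimate of the spread changed with them. For quiescent cells in RNA, 2 genes became 1 with RLE scaling, 1 with no filter on low counts, 1 without the thapsigargin libraries and 0 with only the groups compared. With only the groups compared, irradiated against etoposide-treated cells had 8 in RNA (from 5), etoposide-treated cells had 7 in Ribo-seq (from 4), and TE had 3 after irradiation and 1 between the senescent states (from 0 and 0). Calls over all genes rose in the same fits, to 4384 (from 3000), 6020 (from 3986), 543 (from 3) and 440 (from 0) in that order. Leaving out single libraries gave these ranges in RNA: 0 to 3 in quiescent cells (0 without cycling replicate 1), 3 to 3 in irradiated cells (each library), 2 to 4 with etoposide (2 without cycling replicate 2 or etoposide replicate 2) and 0 to 2 under thapsigargin (0 without cycling replicate 1 or 2). In Ribo-seq the ranges were 5 to 8 in irradiated cells (5 without irradiated replicate 2), 2 to 4 with etoposide (2 without cycling replicate 1 or 3 or etoposide replicate 1), 2 to 5 under thapsigargin (2 without thapsigargin replicate 2) and 2 to 4 for senescent against quiescent cells (4 without quiescent replicate 3).

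Counts over all genes moved by over 1.5 times with only the groups compared, to 852 from 2068 in RNA for quiescent cells, to 1512 from 3259 in RNA under thapsigargin, to 6020 from 3986 in Ribo-seq after etoposide and to 4134 from 2653 in Ribo-seq between the senescent states. TE counts moved to 543 from 3 after irradiation, 29 from 8 after etoposide, 440 from 0 between the senescent states and 1058 from 2438 under thapsigargin. DESeq2 called 28 TE changes after irradiation (from 3), 39 after etoposide (from 8) and 42 for senescent against quiescent cells (from 7). Without cycling RNA-seq replicate 1, RNA calls were 707 for quiescent (from 2068), 2778 for irradiated (from 4643), 2612 for etoposide-treated (from 4593) and 1723 for thapsigargin-treated cells (from 3259). Without cycling RNA-seq replicate 2 they were 889, 3090, 2917 and 1593 in that order. RNA calls between the senescent states were 1893 without irradiated replicate 1 and 1841 without etoposide replicate 2 (from 3000), and Ribo-seq calls were 1500 and 1733 without the Ribo-seq libraries of those numbers (from 2653). Ribo-seq calls in quiescent cells were 1558 without cycling replicate 3 (from 2631). Smaller moves were seen when single Ribo-seq libraries were left out in other comparisons. The ranges were 3641 to 4018 in irradiated cells (from 4771) and 3012 to 3203 after etoposide (from 3986). For senescent against quiescent cells the range was 2168 to 3416 (from 3071). TE calls under thapsigargin were 1600 without cycling RNA-seq replicate 1 and 3741 without thapsigargin Ribo-seq replicate 2 (from 2438). In the other 5 TE comparisons, the alternatives not given above called 0 to 16 genes.

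Over all states, 9 of 23 same-numbered pairs in RNA, 6 of 26 in Ribo-seq and 6 of 13 between the assays had a correlation of deviations over 0.1. Among pairs of different numbers these were 13 of 44, 5 of 52 and 2 of 24, so in RNA a shared number made little difference. Where the numbers were taken as pairs, the block changed no call: footprints of quiescent against cycling cells had 7 of the 10 genes called without the block, with it, and with it when only these groups were fitted (an alternative chosen after seeing the data), and TE after etoposide had 0 with and without it. Elsewhere the numbers were not taken as pairs, and this includes thapsigargin against cycling cells in RNA. With a replicate block, 3 of the 10 genes were called in RNA for quiescent cells (2 without it), 4 for etoposide (5 without it) and 3 for thapsigargin (2 without it). ERN1 after etoposide and MBTPS2 after irradiation in RNA, and ATF6B between the senescent states in Ribo-seq, were not called with the block.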
